A study of Mus musculus with 12 samples.

Results

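The nuclear pore and RNA export genes described here are the mouse genes with a listed N6-methyladenosine (m6A) peak that KEGG places in its pathway for RNA transport. Genes that KEGG also places in the spliceosome or in RNA degradation were left out, as were genes whose name begins with Eif, Eef, Ddx or Dhx. The pathway held 101 genes with a listed peak. The rule dropped 36 of them and left 65 genes with 112 peaks, out of 10277 named genes with 17503 peaks in the whole table. The study set Mettl3-deficient liver against wild-type liver of C57BL/6 mice, in 3 replicates each, with an antibody-precipitated (IP) and an input library per replicate. The 12 libraries thus form 4 groups: Mettl3-deficient IP, Mettl3-deficient input, wild-type IP and wild-type input. The labels call the mutant Mettl3-deficient and give neither the allele, the cells in which the gene was lost, nor the age of the mice beyond postnatal. All values below come from the authors' own comparison of the genotypes, 1 row per peak, so no value per mouse, no depth and no spread between replicates is known.

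METTL3 is the catalytic subunit of the nuclear complex that writes m6A on mRNA, mostly near stop codons and in 3′ UTRs. The mRNAs then leave the nucleus through nuclear pores, large channels built of nucleoporins arranged as a membrane ring, an inner ring, outer rings of Y-shaped complexes, cytoplasmic filaments and a nuclear basket. Importins and exportins carry proteins and small RNAs through the channel under the control of the GTPase Ran, whereas bulk mRNA leaves with the receptor pair NXF1 and NXT1 once THO and exon junction proteins have been loaded onto it. KEGG groups with them the SMN complex, which assembles spliceosomal small nuclear RNPs, RNase P and the related RNase MRP, which trim precursor RNAs, and the FMRP family of translational regulators.

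The header of the deposited table does not name the numerator of its fold change. Since the design compares loss of an m6A writer with wild type, a negative log2 fold change likely means less m6A enrichment in Mettl3-deficient than in wild-type liver. That reading rests on the design alone, and changes are therefore called negative or positive. A peak was called when its deposited false discovery rate (FDR) was at most 0.05, which is a log10 FDR below -1.3. The leading peak of a gene is its peak with the lowest FDR. Whether the deposited FDR takes in the spread between mice is not known. The markers of hepatocytes (Alb, Ttr, Apoa1, Apob) and of endothelial cells (Pecam1, Stab1, Cdh5, Lyve1) all had listed peaks. At the leading peak the authors' deposited table gives positive called changes for all 4 endothelial markers (0.81 for Pecam1, 0.89 for Stab1, 0.25 for Cdh5 and 1.22 for Lyve1). Hepatocyte markers were split in the authors' deposited table, with 0.81 for Alb, 0.93 for Ttr, -1.11 for Apoa1 and -2.05 for Apob. Their part in the results below was not tested. In bulk tissue, a change within cells and a change in the make-up of the cells cannot be told apart.

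The genes split almost evenly between the signs. Of the 65 genes, 56 (86.2%) had a called leading peak, against 81.1% of all named genes. The leading peak was negative and called in 30 genes (46.2%), against 47.6% of all named genes, and positive and called in 26 (40.0%), against 33.6%. Among called genes the negative share was 53.6%, between the 58.6% of all named genes and the 52.0% of the 3631 other genes with a KEGG entry. The median of the leading log2 fold changes was -0.29, against -0.52 over all named genes and 0.34 over the other genes with a KEGG entry. Its sign was not stable: it was 0.34 with peaks of at most 1000 bp, with the peak of largest change per gene, and without shared peaks. These shares lie close to the background, and neither count is a result particular to these genes.

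Counted by peaks, positive changes were more frequent but smaller and carried higher FDR values. Of the 112 peaks, 90 were called (80.4%, against 76.2% of all listed peaks): 41 were negative and called (36.6%, against 40.6% of all listed peaks) and 49 were positive and called (43.8%, against 35.6%). The 41 negative peaks had a median log2 fold change of -1.15, a ratio of 0.451, against -1.34 for all negative called peaks of the table, and 25 of them (61.0%, against 71.3%) reached a size of 1 or more. The 49 positive peaks had a median of 0.80, a ratio of 1.74, against 0.73 for all positive called peaks, and 13 of them (26.5%, against 21.9%) reached that size. Larger negative than positive changes are thus a feature of the whole table. By leading peak, 19 genes were negative by at least 1 on the log2 scale (29.2%, against 35.3% of all named genes) and 6 were positive by as much (9.23%, against 7.81%). In the authors' deposited table the log10 FDR of the negative peaks reached the floor of the scale at -434 in 3 genes (4.62%, against 4.24% of all named genes), and 16 of the 41 (39.0%) stood at -20 or lower, against 44.7% of all negative called peaks. The lowest log10 FDR of a positive peak among these genes was -17.7, in Kpnb1 in the authors' deposited table, so that none of the 49 reached -20, against 961 of 6238 positive peaks in the whole table (15.4%).

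**Figure D1:**
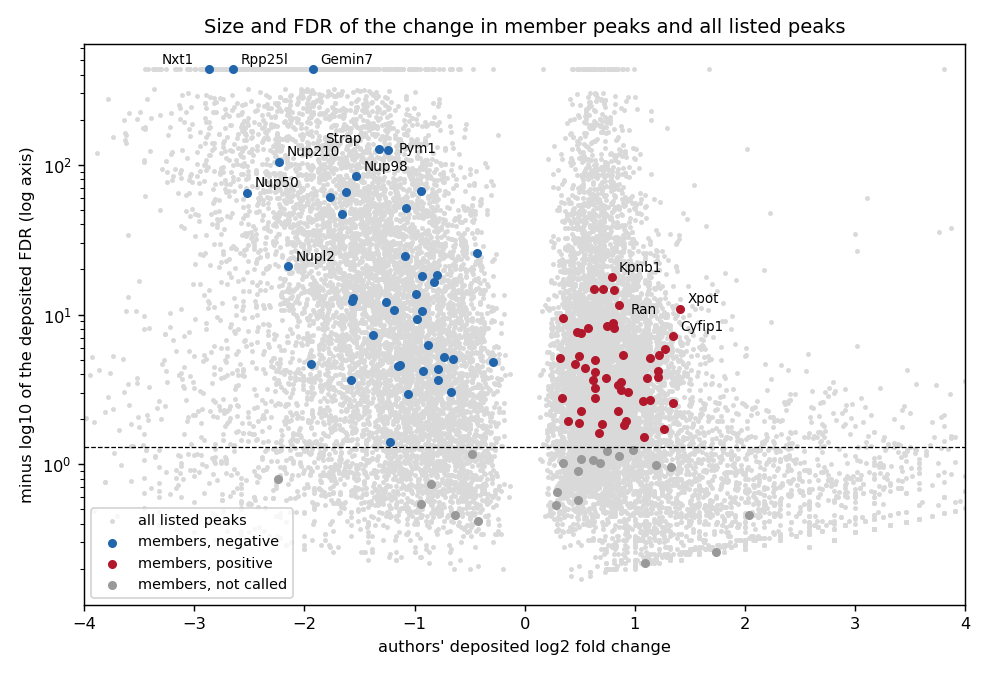
Log2 fold change of each peak (horizontal axis) against minus log10 of the deposited FDR (vertical axis, log scale), with the peaks of nuclear pore and RNA export genes coloured by call over all listed peaks within 4 of 0 in grey; the dashed line is the FDR threshold of 0.05. The blue negative points of Nxt1, Rpp25l and Gemin7 reach the floor (log10 FDR -434), whereas the highest red positive point, of Kpnb1, has a log10 FDR of -17.7.

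Several roles within the set held called genes mostly of 1 sign. All 6 genes of the Ran and SUMO group were positive and called, against 33.6% of all named genes, as were 4 of 5 Y complex genes and 4 of 5 genes of the FMRP group, and none of the other 2 was called. In contrast, 8 of 10 RNase P/MRP and tRNA maturation genes were negative and called, against 47.6% of all named genes, and the other 2 were not called. Without peaks shared with another gene, 6 of the 8 genes left in that group were negative and called and 2 not called. In the SMN group 7 of 8 genes were negative. Groups of 2 to 10 genes can differ in this way by chance, no test of them was made, and the roles were assigned with earlier results of these data known.

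**Figure D2:**
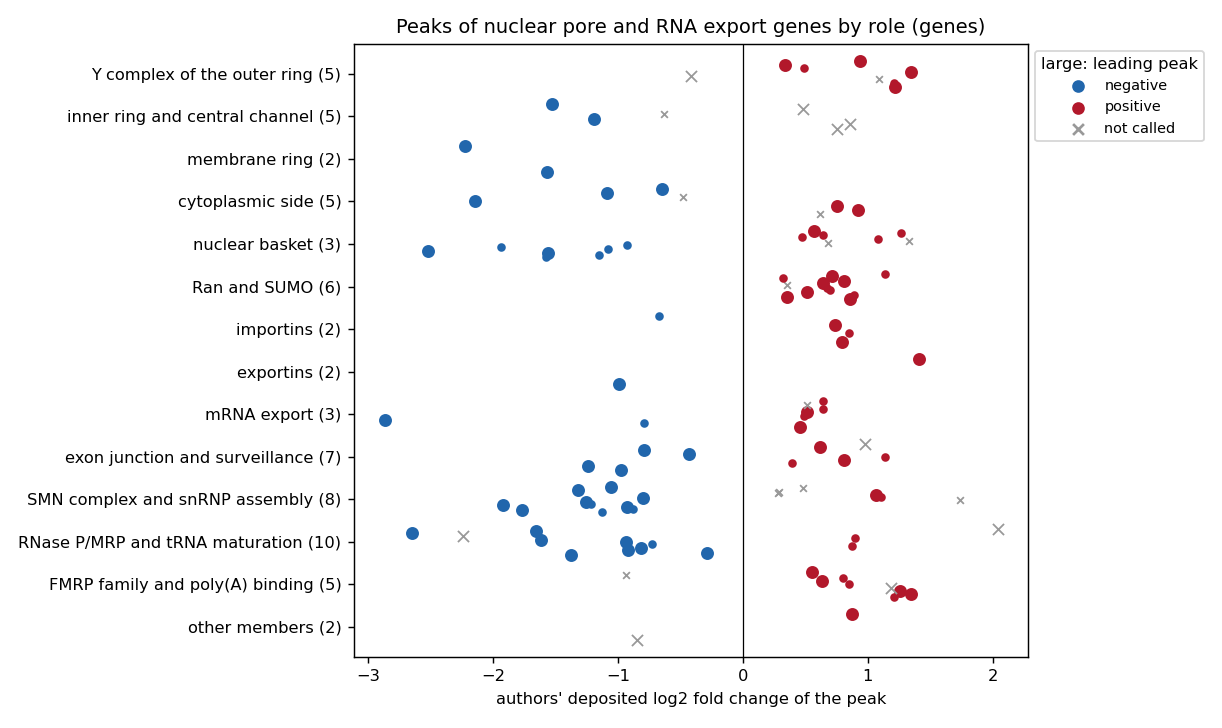
Log2 fold change (horizontal axis) of all 112 peaks by the role of their gene (rows, number of genes in brackets), with large points for leading peaks and crosses for peaks that were not called. All called peaks of the Ran and SUMO, Y complex and FMRP rows lie right of 0, and all called leading peaks of the RNase P/MRP row lie left of it.

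Among the 20 nucleoporin genes, 9 had a negative call, 7 a positive one and 4 none. Their negative share of called genes was 56.2%, close to the 58.6% of all named genes. The signs differed between substructures of 2 to 5 genes each, and these differences were not tested. The Y complex, which shapes the outer rings, had no negative called peak among the 8 listed peaks of its 5 genes in the KEGG set, whereas Ahctf1, outside the set, was negative. Its leading values, from the authors' deposited table, were 1.35 in the 5′ UTR of Nup85 (log10 FDR -2.57), 1.22 in the 3′ UTR of Nup133 (-5.35), 0.94 in the 5′ UTR of Seh1l (-3.03) and 0.34 in an exon of Sec13 (-2.77), a gene that also serves the COPII coat. Nup160 was the exception in that its only peak, at -0.42 with a log10 FDR of -0.42 in the authors' deposited table, was not called.

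The inner ring genes gave few calls. Nup98, whose product carries phenylalanine-glycine repeats and binds the export factor RAE1, had -1.53 (ratio 0.346, log10 FDR -84.3) by the authors' deposited table, at a 3′ UTR peak that also overlaps the neighbouring gene Art1. Nup54, of the central channel, stood at -1.19 (log10 FDR -10.8) there. The scaffold genes Nup188 (0.75), Nup205 (0.86) and Nup93 (0.48 and -0.63, all from the authors' deposited table) gave no call. Nup188 and Nup205 lay just past the threshold, with FDR values of 0.0603 and 0.0724.

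Both membrane nucleoporins were negative. The authors' deposited table gives -2.23 for Nup210 (ratio 0.213, log10 FDR -105), a glycoprotein with most of its mass in the lumen of the nuclear envelope, and -1.57 for Ndc1 (ratio 0.337, log10 FDR -12.3), which anchors the pore in the membrane. Each is the only listed peak of its gene and lies in the 3′ UTR. The Nup210 peak covers 91013068 to 91013457 on chromosome 6 (mm10, 390 bp), at the RefSeq 3′ end of the gene.

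On the cytoplasmic side 3 genes were negative and 2 positive. For Nupl2, a repeat nucleoporin that binds the mRNA export factor GLE1, the authors' deposited table gives -2.15 (ratio 0.225, log10 FDR -21) at 24182428 to 24182757 on chromosome 5. A further 3′ UTR peak of Nupl2 stood at -0.48 there and was not called. Rae1 (-1.09, log10 FDR -24.5) and Ranbp2, which encodes the filament protein that binds Ran and acts as a SUMO ligase (-0.65, log10 FDR -5.07), were also negative in the authors' deposited table. Nup88 (0.75, log10 FDR -8.35) and Aaas, the gene of aladin (0.92, log10 FDR -1.95), were positive there.

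The nuclear basket held the widest contrast within 1 substructure. Nup50, whose product helps to release import cargo, had 4 peaks, and all were negative and called. From 5′ to 3′ the authors' deposited table gives -2.52 in exon 5 of 8 (log10 FDR -65), then -1.08, -1.94 and -0.93 in the 3′ UTR. Nup153, an anchor of the basket, had 3 negative called peaks, at -1.56 in exon 16 of 22, -1.15 in exon 18 and -1.58 in the 3′ UTR, by the authors' deposited table. Tpr, the main filament protein of the basket, had 7 peaks of which 5 were positive and called and 2 not called, between 0.47 and 1.33 in the authors' deposited table. Its leading peak, at 0.57, runs 936 bp past the RefSeq 3′ end of Tpr into Prg4, and the call for Tpr by peaks inside the gene rests on the others, among them 1.27 in the 3′ UTR (log10 FDR -5.89, authors' deposited table), which also touches Prg4.

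**Figure D3:**
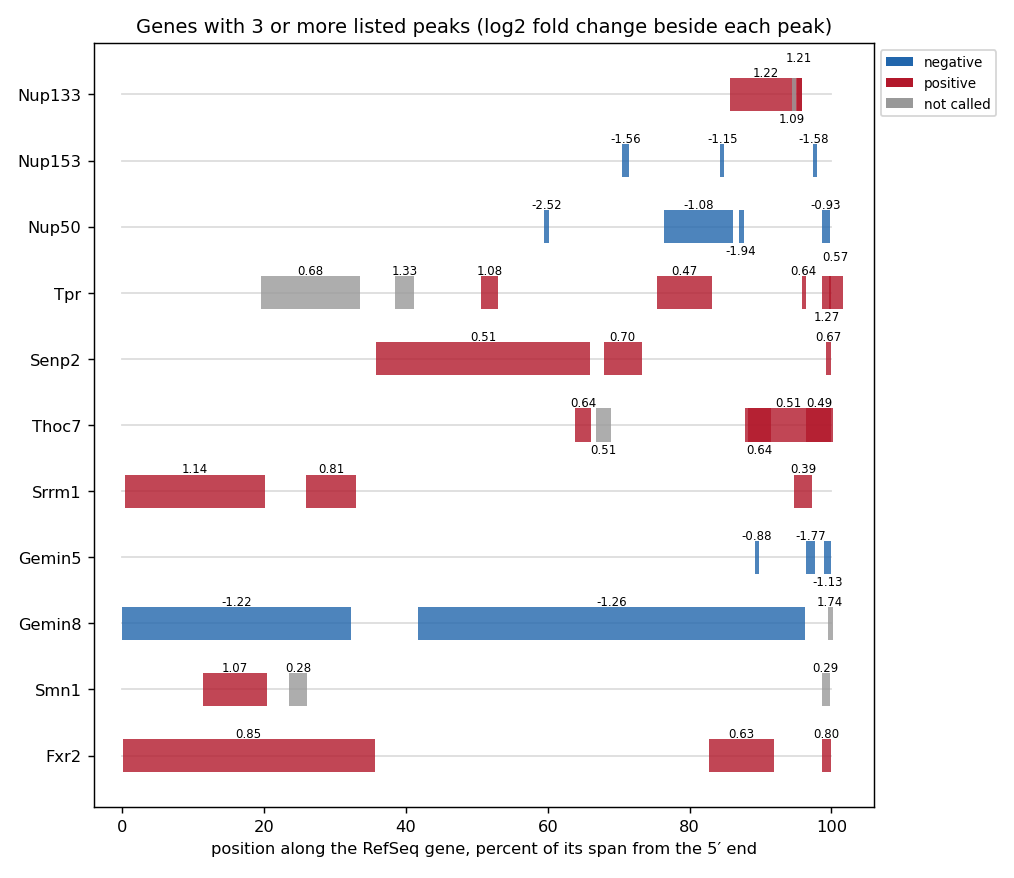
Extent of each listed peak along its gene, in percent of the RefSeq span from the 5′ end (horizontal axis), for the 11 genes with 3 or more listed peaks and a strand in the RefSeq promoter table, with the log2 fold change beside each peak. Called peaks of a gene share their sign in every row: negative in Nup153, Nup50, Gemin5 and Gemin8, positive in the other rows.

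The 6 genes of the Ran and SUMO group were positive throughout, though by small amounts. The SUMO pathway modifies RANGAP1 at the pore. Of the 12 peaks of this group 11 were positive and called, against 35.6% of all listed peaks, and 1 was not called. Ranbp2, the gene of a Ran-binding SUMO ligase, was counted with the cytoplasmic side and was negative (-0.65 in the authors' deposited table). For Ran the authors' deposited table gives 0.86 (log10 FDR -11.6), against 0.35 and 0.89 for Rangap1, whose product triggers GTP hydrolysis by Ran. The modifier gene Sumo3 (0.81 and 0.32) and the protease gene Senp2 (0.51, 0.70 and 0.67) were likewise positive in the authors' deposited table. Most of these peaks carry the label 5′ UTR: 7 of the 12, in 5 of the 6 genes. In the negative groups that label was less frequent, with 2 of 13 peaks in the RNase P/MRP group and 6 of 16 in the SMN group, and the part of the label in the signs was not tested.

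Transport receptors went both ways. Kpnb1, the gene of importin beta, was positive at both of its peaks, and the authors' deposited table gives 0.85 for its 5′ UTR and 0.79 for its 3′ UTR. Snupn, which encodes the import adaptor of capped small nuclear RNPs, held changes of both signs: 0.74 at its 5′ UTR (log10 FDR -3.77) but -0.67 at its 3′ UTR (log10 FDR -3.04) by the authors' deposited table. The 2 exportin genes had opposite signs at single 3′ UTR peaks. Xpo5, the exporter of microRNA precursors, had -0.99 (ratio 0.503, log10 FDR -13.7) and Xpot, the exporter of tRNA, had 1.41 (ratio 2.66, log10 FDR -10.9) by the authors' deposited table, the highest called value among the 65 genes.

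The partners of the mRNA export receptor differed in sign. Nxt1 had the most negative change of all 112 peaks. In the authors' deposited table its peak at 148675323 to 148676027 on chromosome 2 (705 bp) stood at -2.87, a ratio of 0.137, with the log10 FDR at its floor of -434. A wider peak over the start of Nxt1 had -0.79 (log10 FDR -4.35) there. Nxf1, which forms the receptor with NXT1, had a 3′ UTR peak at 0.46 (ratio 1.38, log10 FDR -4.68) by the authors' deposited table. Thoc7, of the THO complex that packages nascent mRNA, had 5 peaks, all labelled 3′ UTR, of which 4 were positive and called, between 0.49 and 0.64 in the authors' deposited table. Its leading peak, at 0.51 (log10 FDR -7.48), and the peak at 0.49 there also overlap the gene Gm11100.

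Some of these peaks overlap each other. The rows of the table run through most chromosomes in 2 passes of rising coordinates, and genes of the RefSeq plus strand fell in the first pass and genes of the minus strand in the second for 93.1% of 13445 peaks. By this measure 6 of the 112 peaks lay in the pass of the other strand: 2 each in Nup133 and Thoc7 and 1 each in Tpr and Fxr1. The deposited columns give no strand, and whether these peaks stem from antisense RNA was not tested. With those peaks and the 9 that overlap another protein-coding gene left out, 60 genes remained, 26 of them negative and 26 positive.

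Of 7 exon junction and surveillance genes 4 were negative, 2 positive and 1 without a call, and most changes were small. Over all named genes 47.6% were negative and called and 33.6% positive and called. Pym1, whose product strips exon junction complexes from mRNA during translation, stood at -1.24 (ratio 0.423, log10 FDR -126) in the authors' deposited table, at a peak of 18676 bp that spans 99.9% of the gene. The nonsense-mediated decay genes Upf1 (-0.43, log10 FDR -25.9) and Upf2 (-0.79, log10 FDR -3.63) and the junction core gene Casc3 (-0.98, log10 FDR -9.29) were negative in the authors' deposited table. The Upf1 peak overlaps the neighbouring genes Cers1 and Gdf1. The paralogues Upf3a (0.62, called) and Upf3b (0.98, FDR 0.0562, no call) lay on the positive side in the authors' deposited table. Srrm1, a splicing coactivator gene, had 3 positive called peaks at 1.14, 0.81 and 0.39 from 5′ to 3′ there.

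Genes of the SMN complex and of small nuclear RNP assembly were mostly negative. Of 8 genes, 7 were negative and 1 positive, against 47.6% and 33.6% of all named genes. Of 16 peaks 10 had a negative call, 2 a positive one and 4 none, against 40.6% negative and 35.6% positive of all listed peaks. The authors' deposited table lists -1.92 for Gemin7 (ratio 0.264, log10 FDR at the floor), -1.77 for the RNA-recognising subunit gene Gemin5 (ratio 0.293, log10 FDR -61.3), -1.32 for Strap (ratio 0.401, log10 FDR -128) and -1.26 for Gemin8 (log10 FDR -12.2). A narrow 3′ UTR peak of Gemin8, at 1.74 by the authors' deposited table, gave no call. Gemin6 (-0.93), Tgs1, the enzyme gene of the trimethyl cap of small nuclear RNAs (-1.06), and Prmt5, the methyltransferase gene for Sm proteins (-0.80), followed in the authors' deposited table. The exception was Smn1 itself, whose called peak stood at 1.07 (log10 FDR -2.64) near the start of the gene. Its remaining peaks, at 0.28 and 0.29 in the 3′ UTR by the authors' deposited table, gave no call. Prmt5 also held 1.11 in the 5′ UTR (log10 FDR -3.78) there.

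RNase P/MRP and tRNA maturation genes of the KEGG set had no positive leading call. Of 13 peaks 9 were negative and 2 positive, against 40.6% and 35.6% of all listed peaks, and the remaining 2 gave no call. For Rpp25l the authors' deposited table gives -2.65 (ratio 0.159, log10 FDR at the floor) at 41712033 to 41712534 on chromosome 4, the second most negative leading change of the 65 genes. Rpp25l is a paralogue of Rpp25, which had -2.24 by the authors' deposited table but, at an FDR of 0.158, no call. Other called values in the authors' deposited table were -1.66 in Rpp38 (log10 FDR -46.8), -1.62 in Rpp14 (-65.4), -0.94 and -0.73 in Pop5 (-67 at the leading peak), -0.92 in Pop1 (-4.21) and -0.82 in Pop4 (-16.6). These encode protein subunits of the enzyme. The tRNA 3′ end nucleases Elac1 (-1.38) and Elac2 (-0.29, at a peak shared with Arhgap44) were negative there as well. Both peaks of Rpp14, at -1.62 and 0.90 in the authors' deposited table, overlap Htd2, a mitochondrial enzyme gene that lies in the same span, so they cannot be assigned to 1 of these genes. The uncalled Rpp40 peak, at 2.04 by the authors' deposited table, lies outside the RefSeq span of the gene.

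The FMRP family genes of the KEGG set had no negative called peak. Of 9 peaks 7 were positive and called, against 35.6% of all listed peaks. The authors' deposited table gives 1.35 in the 3′ UTR and 1.21 in the 5′ UTR for Cyfip1, an FMRP partner that links it to the cap-binding protein and to actin. It also gives 1.26 for Fmr1 (log10 FDR -1.72) and 0.85, 0.63 and 0.80 for Fxr2, while the peak listed for Fxr1, at 1.19, was not called. The authors' annotation places that peak in an exon of another gene ID, and it lies in the pass of the other strand. The same holds for the uncalled exon peak of Nup133 (1.09 in the authors' deposited table). Paip1, a partner of poly(A)-binding protein, stood at 0.55 at a called peak and -0.94 at a peak that was not called in the authors' deposited table. The remaining members of the KEGG set were Tacc3, a spindle protein gene (0.87, called), and Rasl2-9, a gene of Ran-like sequence (-0.85, not called), in the authors' deposited table. Reads of Rasl2-9 and Ran could be shared.

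In the whole table the feature label of a peak went with its sign. The 65 genes had the same order of the 2 UTRs, but with overlapping intervals. Of 26 called peaks labelled 5′ UTR 30.8% were negative (95% Wilson interval 16.5 to 50), close to the 30.1% of all listed peaks of that label. Of 51 called 3′ UTR peaks 52.9% were negative (39.5 to 65.9), against 60.4% of all. Of 13 called exon peaks 46.2% were negative (23.2 to 70.9), against 61.8% of all. These intervals cover counting error over peaks only. In each feature the share of all listed peaks lies within the interval of the 65 genes.

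**Figure D4:**
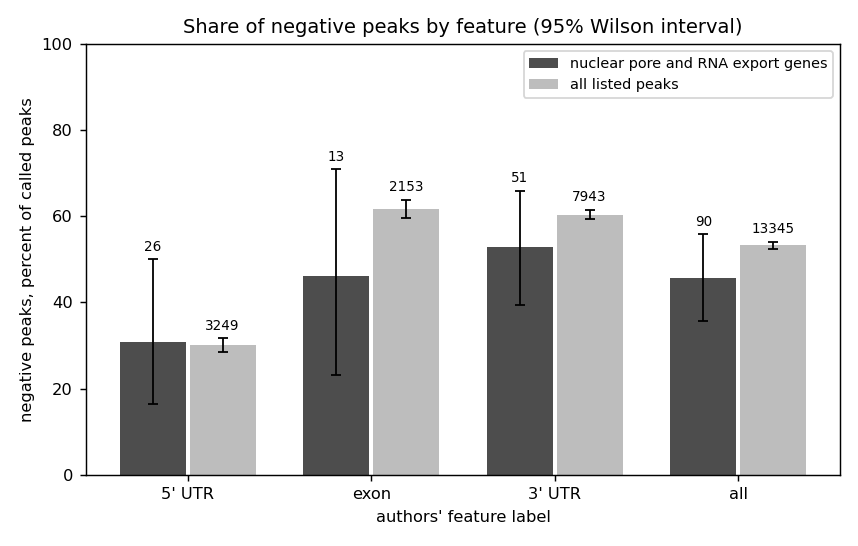
Negative peaks in percent of called peaks (vertical axis) by the authors' feature label (horizontal axis), for nuclear pore and RNA export genes (dark) and all listed peaks (light), with 95% Wilson intervals and the number of called peaks above each bar. The dark and light bars stand at 30.8% and 30.1% in the 5′ UTR and at 52.9% and 60.4% in the 3′ UTR.

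Peaks labelled 5′ UTR were of differing kinds. A total of 8 of them were negative and called, in Gemin6, Gemin7, Gemin8, Nxt1, Pym1 and Rpp38, and 4 of these ended within 50 bp of the RefSeq 3′ end of the gene. The strongest Nxt1 peak is 1 of those 4: it begins 2708 bp from the RefSeq start and reaches the end of the gene, so its label does not describe where it lies. The Gemin7 peak covers 78.4% of the gene, up to its 3′ end, and that of Gemin6 ends 30 bp short of it. Of the 18 positive peaks with this label, 12 had a strand in the RefSeq promoter table, and none of these came closer to the 3′ end than 3867 bp, the distance in Ran. Among peaks of at most 1000 bp, 7 of the 8 called ones labelled 5′ UTR were positive (background 986 of 1288), and the exception was the Nxt1 peak at the end of the gene.

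**Figure D5:**
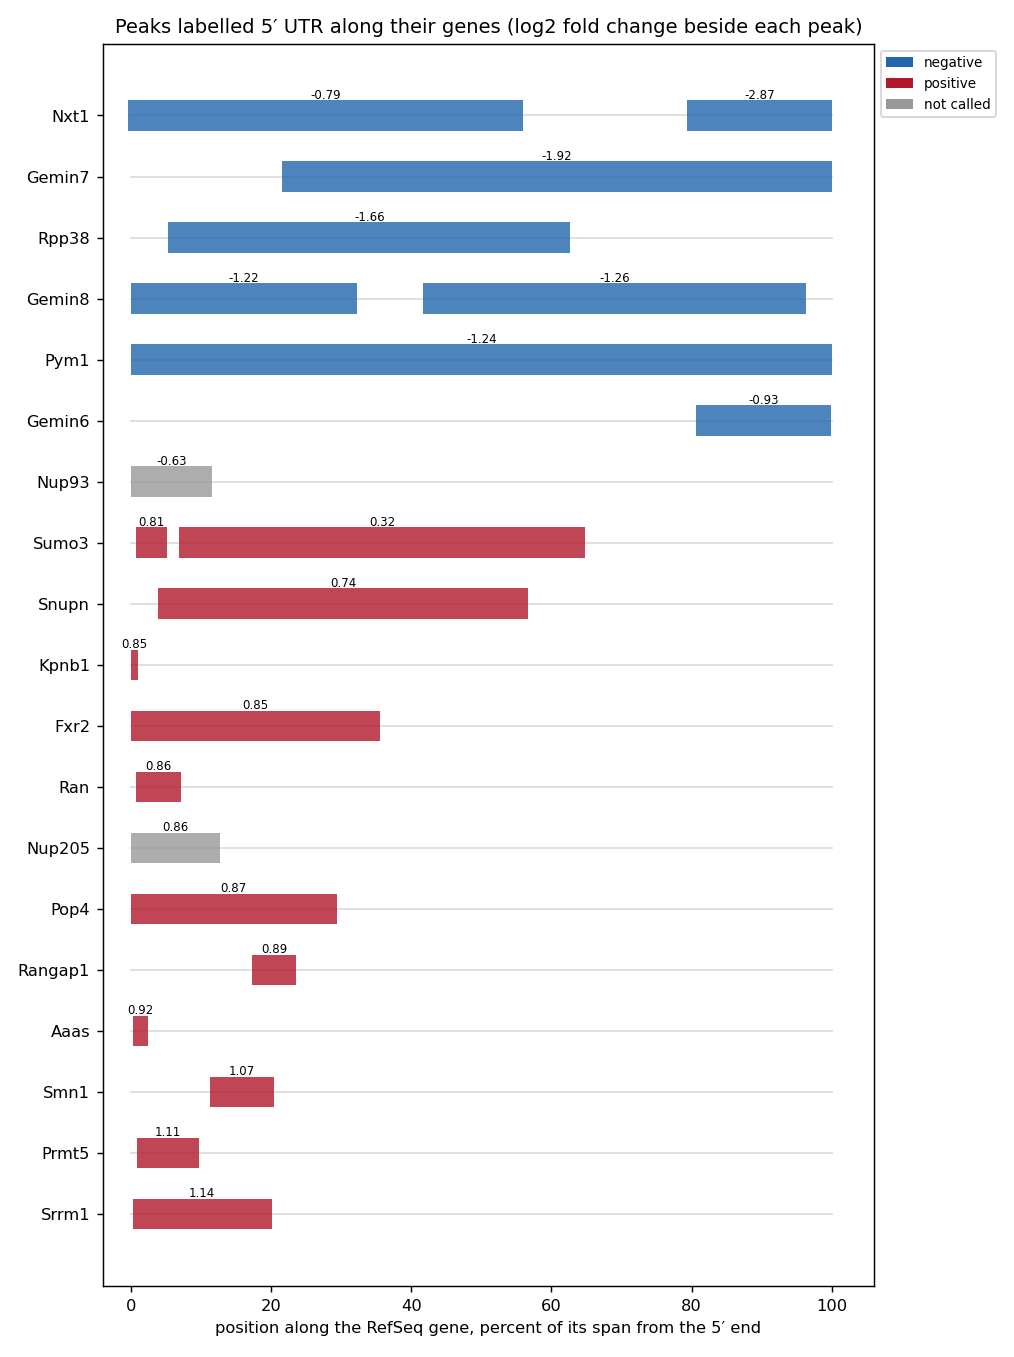
Extent of each peak labelled 5′ UTR along its gene, in percent of the RefSeq span from the 5′ end (horizontal axis), ordered from the most negative gene at the top, with the log2 fold change beside each peak. The positive (red) peaks end well short of the 3′ end, whereas the negative (blue) peaks of Nxt1, Gemin7, Pym1 and Gemin6 reach 100%.

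A called peak labelled 5′ UTR covered a RefSeq transcript start, or lay within 50 bp of it, in 14 genes. The sequence around the start is shown for the 4 of them with a positive peak of at most 1000 bp and for 4 with a negative peak. These peaks differ in sign although each covers the start shown or lies within 50 bp of it. In Ran, Kpnb1, Aaas and Pym1 the peak begins 10 to 48 bp downstream of that start. The windows of Ran and Aaas lie outside their peaks. The peaks themselves differ in kind: the 4 positive ones are 256 to 551 bp wide and the 4 negative ones 1922 to 18676 bp. Each window runs from 10 bases before the start to 19 after it, 5′ to 3′ on the strand of the gene, from RefSeq on GRCm38.p6, and the capital marks the annotated first base of the transcript.
Ran (positive, chr5:129020146-129020175, plus strand): gcgccgttgcTccgccctctcccggctcct
Kpnb1 (positive, chr11:97187873-97187902, minus strand): ccgcccttccTttctccctccgccgcccga
Aaas (positive, chr15:102350740-102350769, minus strand): ttccttgcacTtccgttcagcttcgcgcag
Sumo3 (positive, chr10:77606588-77606617, plus strand): aacccggaacTtgggtgctggttcttggtt
Nxt1 (negative, chr2:148672605-148672634, plus strand): ggcgggagtcGacgggaaccgggatgctag
Gemin6 (negative, chr17:80224441-80224470, plus strand): ggagcaaagcAtgctgggctcaggcgggcc
Pym1 (negative, chr10:128747869-128747898, plus strand): cctctgacccGagaggatccagtactgagc
Rpp38 (negative, chr2:3332609-3332638, minus strand): gcgcacgctcAgtgcaggcgcacgtggagc

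All 4 positive genes shown begin with T in RefSeq and none of the 4 negative ones does. The starts shown for Sumo3, Gemin6 and Rpp38 lie inside the RefSeq span of the gene, downstream of its outermost 5′ end. Over all 9 positive genes of this kind 4 began with T, 3 with A and 2 with G, and over the 5 negative ones 2 began with A, 2 with G and 1 with C. Of all 32851 RefSeq windows 13.7% began with T and 34.4% with A. The letters GGACT, a common form of the METTL3 recognition site, were searched on the transcript strand in the 50 bases from the start and occurred in none of the 14 windows, with 1 start per gene, against 5.76% of all windows. A further annotated start of Pym1 did hold them. Annotated starts can differ from the starts used in liver, and these counts are a description of few genes.

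Called peaks of both UTR labels occurred in 8 of the 65 genes, and the ends named here are those of the labels. The leading 3′ UTR peak of Srrm1, at 0.81 in the authors' deposited table, lies at 25.9% to 32.9% of the gene span. A further called one, at 0.39 there, lies at 94.8% to 97.3%. The sign was positive at the 5′ end and negative at the 3′ end in Pop4, Prmt5 and Snupn, and positive at both ends in Cyfip1, Fxr2, Kpnb1, Nup85 and Srrm1. No gene had the opposite order or was negative at both ends. Over 1475 genes of the whole table with called peaks in both UTRs, 521 had the first pattern, 576 were positive at both ends, 86 had the opposite order and 292 were negative at both ends. In the authors' deposited table the leading values were 0.87 and -0.82 in Pop4 and 1.11 and -0.80 in Prmt5. The value of the 3′ UTR minus that of the 5′ UTR had a median of -0.60 over these 8 genes and -0.45 over the 1475. Called peaks of both signs occurred in 4 genes, these 3 and Rpp14 (6.15%, against 12.4% of all named genes).

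The distance of 3′ UTR peaks from the end of the gene gave no fixed order of the signs. Over called 3′ UTR peaks of at most 1000 bp with a RefSeq strand, the centre lay a median of 838 bp from the RefSeq 3′ end in 17 negative peaks (quartiles 240 and 1514) and 457 bp in 10 positive ones (201 and 1834). With wider peaks included the order turned, with medians of 833 bp in 24 negative and 2020 bp in 18 positive peaks. The farthest of these positive peaks, in Srrm1, lay 23145 bp from the 3′ end although labelled 3′ UTR. Among these genes positive peaks were wider, with a median genomic width of 1161 bp in 49 peaks, against 570 bp in 41 negative ones. These widths include introns. Widths over 1000 bp occurred in 25 of the 49 and 16 of the 41. Over all listed peaks they occurred in 2363 of 6238 positive and 2732 of 7107 negative called ones. The part of the feature label in this was not tested. The RefSeq genes themselves were of similar length, with a median span of 23580 bp in the 26 positive genes and 19890 bp in the 30 negative ones.

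Genes with related roles outside the 65, from lists of known importin, exportin, export and envelope genes drawn up with earlier results of these data known, were also split. Of 27 further importin, exportin and Ran genes, 17 had a listed peak, and 7 of these had a negative call, 6 a positive one and 4 none. The shares of all named genes were 47.6% negative and 33.6% positive. Negative values in the authors' deposited table include -1.80 for the importin alpha gene Kpna6 (log10 FDR -82.8), -1.57 for Cse1l, which returns importin alpha to the cytoplasm (log10 FDR -33.9), and -1.24 for the exportin gene Xpo6 (log10 FDR -92.3). On the positive side the authors' deposited table gives 0.30 for Ranbp1 and 0.60 for Nutf2, the import factor gene of Ran. Adding such genes to the role groups kept some signs and broke others. The Ran and SUMO group then had 10 genes with a listed peak, 8 positive and 2 not called. The Y complex gained a negative gene, Ahctf1, which directs pore assembly on chromatin (-1.27 and -1.59 in the authors' deposited table, both called). The FMRP and poly(A) group gained a negative gene, Paip2b (-0.62, with a called positive peak at 0.73), beside the positive genes Pabpc1 (0.34) and Paip2 (0.69) of the authors' deposited table. For the RNase P/MRP group the authors' deposited table adds the positive gene Rpp21 (0.95) and the negative gene Nsun2 (-1.03 at its leading peak, 1.34 at another), and for the SMN group the positive gene Wdr77 (0.97). Of 25 further mRNA export and exon junction genes, 13 had a listed peak, with 2 negative, 8 positive and 3 not called. The THO gene Thoc3 stood at -1.67 (log10 FDR -61.2), against 0.48 for Acin1, 0.47 for Magoh and 0.41 for Rbm8a in the authors' deposited table. The extremes had high FDR values: 5.39 in Sarnp (log10 FDR -1.44) and -4.48 in Pcid2 (log10 FDR -2.15) by the authors' deposited table. The Pcid2 peak overlaps the leading one of that gene, at 0.67 (log10 FDR -2.16, authors' deposited table), by which Pcid2 counts as positive.

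Of 11 nuclear lamina and envelope genes 4 were negative, 6 positive and 1 without a call. Beside the counts here, 47.6% of all named genes were negative and called and 33.6% positive and called. The A-type and B-type lamin genes Lmna (1.0), Lmnb1 (0.85) and Lmnb2 (0.89) were positive in the authors' deposited table, whereas Syne2 (-1.53) and Sun1 (-1.38), of the bridge between the envelope and the cytoskeleton, were negative at their leading peaks. Both of these also held a positive called peak (1.24 in Syne2 and 1.05 in Sun1), and Sun2 was positive (0.43), by the authors' deposited table. Among 8 genes that link m6A to export, 1 was negative, 6 positive and 1 not called. Srsf1, Srsf3, Srsf7, Srsf10 and Ddx39b of this list are also among the 97 spliceosome genes, of which 61 were positive. Ythdc1, the nuclear m6A reader, had -0.97 (log10 FDR -4.84) at its leading peak and 0.74 (log10 FDR -2.99) at a further 3′ UTR peak by the authors' deposited table. The splicing and export adaptors Srsf3 (0.98) and Srsf7 (0.99) and the export helicase gene Ddx39b (0.84) were positive there. The 36 genes of the KEGG pathway that the rule dropped, mostly translation initiation factors, comprised 15 negative and 19 positive genes and 2 without a call. The 97 spliceosome genes were negative in 29 and positive in 61. Their negative share of called genes was 32.2%, against 53.6% of the nuclear pore and RNA export genes, and this difference was not tested.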

How the data were processed

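m6A was profiled in poly(A) RNA of liver by immunoprecipitation, with stranded IP and input libraries, per the labels' protocols. The submitters' processing notes name HISAT2 2.1.0 and mm10. Which program called and compared the peaks, and how it treated replicates, is not given in the sources used here. The authors deposited 1 table of 17692 peaks with a score for the log2 fold change between genotypes, a score for the log10 FDR and a p-value rounded to 2 decimals. In 189 rows without a gene name these cells stand in another order, and the rows were left out.

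The planned edgeR or limma fit needs values per library and was not run, and no new test was made. Genes were chosen by the KEGG cell, leading peaks by the lowest FDR and then the larger change, and calls at an FDR of 0.05. The named genes were up to 4 called genes per role by FDR, the 6 most negative and 6 most positive, and all with called peaks of both signs; further genes were named after their values were seen. Some genes enter the counts but are not reported by name here. The members and lists were chosen with earlier results of these data known. RefSeq symbols of GRCm38.p6, the build of mm10, matched all 65 genes, and 111 of 112 peaks overlapped the span of their gene. Counting was tested on simulated data in which only 200 planted negative genes among 10277 held a called peak, and all 200 were counted. Genes with called peaks of both signs were not simulated, so the test checks the code alone. Alternatives covered the FDR threshold, the size of the change, peak width, feature, choice of peak and the reference level. Analyses used Python 3.11.15, numpy 2.4.6, pandas 2.3.3, scipy 1.17.1 and matplotlib 3.10.9.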

Additional observations from a re-analysis of the deposited data

How the results depend on the processing

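The near-even split of the 65 genes held under most alternatives, but not with large changes alone or with 3′ UTR peaks alone. Counts fell where fewer peaks were kept. With peaks of at most 1000 bp, 18 genes were negative and 17 positive (25 and 24 peaks), and with log2 changes no smaller than 1, 19 were negative and 6 positive (25 and 13 peaks). With 3′ UTR peaks alone, 24 were negative and 14 positive. The median of -0.29 turned to 0.34 with narrow peaks, with the peak of largest change, and without peaks shared with another gene or strand pass (the last an alternative chosen after seeing the data). It was -0.72 over genes called at an FDR of 0.01, -0.65 over 3′ UTR peaks, -0.08 with the mean over peaks and -0.04 over nucleoporins. The negative share of 5′ UTR peaks was 12.5% with narrow peaks. For single genes the sign reversed in 7: Gemin8 at 1.74 (narrow, largest or 3′ UTR peak), Paip1 at -0.94 (narrow or largest) and -0.19 (mean), Nup93 at -0.63 (largest) and -0.08 (mean), Pop4 at 0.87 and 0.03, Prmt5 at 1.11 and 0.16 (largest and mean), Snupn at -0.67 (narrow or 3′ UTR) and Strap at 0.48 (narrow). The causes were not tested, beyond the smaller number of peaks that some alternatives keep. The rows without a gene name hold no KEGG entry and so cannot enter the counts of the 65 genes. They were not put back, and the shares over all listed peaks were not recomputed with them. No paired analysis was possible because the table holds no values per replicate, and for the same reason no replicate could be left out. Read depth behind each peak is unknown.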
